A study of Rattus norvegicus with 2 samples.

Results

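The axon guidance genes described here are the genes for semaphorins, plexins, neuropilins, ephrins, Eph receptors, Slits, Robos, netrins and netrin receptors. They were chosen by symbol (Sema, Plxn, Epha, Ephb, Efna, Efnb, Robo, Slit with a number, Unc5, Ntn, Nrp1, Nrp2 and Dcc) after the RefSeq accessions of the array probes had been matched to rat gene symbols. The choice took 59 of the 16099 named genes, on 81 probes, and the probe with the highest mean signal stood for each gene. The rule takes 74 symbols of the gene table; the other 15, among them Efna3, Plxna1, Plxna4, Plxnb1, Plxnc1, Plxnd1, Robo3 and Sema3f, had no matched probe and were not analysed here. Unc50 and Unc5cl share the prefix of the netrin receptors but are not guidance receptors; they stay in the counts and are named where they occur.

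Spontaneously hypertensive rats (SHR), an inbred strain whose blood pressure rises with age, were studied at 9 weeks of age, fed and watered freely and otherwise untreated. Hypothalamic RNA of 5 males was combined into 1 pool and that of 5 females into another, at 100 ng per rat. Each pool was hybridised to 1 single-colour array, so differences between the sexes, between individual rats and between arrays cannot be told apart. There were no replicates, no test was possible, and every difference below describes these 2 pools. In whole tissue, fewer cells of a type and less RNA per cell cannot be told apart.

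Axon guidance molecules steer growing axons and, in the adult brain, take part in synapse maintenance, vessel growth and glial contact. Semaphorins signal through plexins, the secreted class 3 members with a neuropilin as co-receptor. Ephrins are membrane-bound ligands of the Eph receptor tyrosine kinases and can themselves signal back into the cell that carries them. Slits repel axons through Robo receptors, and netrins attract through Dcc or repel through the Unc5 receptors. Semaphorin 3A with neuropilins is known to guide the neurons that make gonadotropin-releasing hormone into the hypothalamus.

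Signals are given in percent of each array's 75th percentile, which was 2203 units on the male and 2254 units on the female array. A probe is called detected in a pool when the scanner software put its spots well above background, and a gene measured when detected in at least 1 pool. The difference is the log2 signal of the male pool minus that of the female pool, so negative values are higher in the female pool. The technical SD is that of a difference on a single spot, estimated from probes printed repeatedly; it was 0.072 above the 75th percentile, 0.087 at log2 signals of -2 to 0, 0.13 at -4 to -2, 0.25 at -6 to -4 and 0.43 below -6. It covers printing and scanning only. Well above background on the male array were 71.6% of the spots for rat transcripts, and 73.0% on the female array, over a median background of 33 units on both, with no saturated spot.

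Most axon guidance genes lay close together in the pools. Of the 59 genes 51 were detected in both pools, 4 (Sema3g, Epha1, Ephb4 and Ntn5) in 1 pool, and 4 (Ntn1, Ntn4, Ntng2 and Unc5cl) in neither. Over the 51 genes the median log2 difference was -0.053, with an interquartile range from -0.12 to 0.074, and 47 of them (92.2%) differed by less than 0.3. Over the 12052 named genes detected in both pools it was -0.021, and 91.1% differed by less than 0.3. In the male pool 21 of the 51 were higher and 30 lower (58.8% lower, against 57.2% of all named genes). With each array centred on its median, 18 were higher and 33 lower, and with normexp, a model-based background correction applied to pixel medians, 25 were higher and 26 lower. The log2 signals of the 51 genes correlated between the arrays with a Pearson's r of 0.975, and 0.997 without the ephrin gene Efna4; over all named genes r was 0.994. Genes share their arrays and are not independent points.

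**Figure D1:**
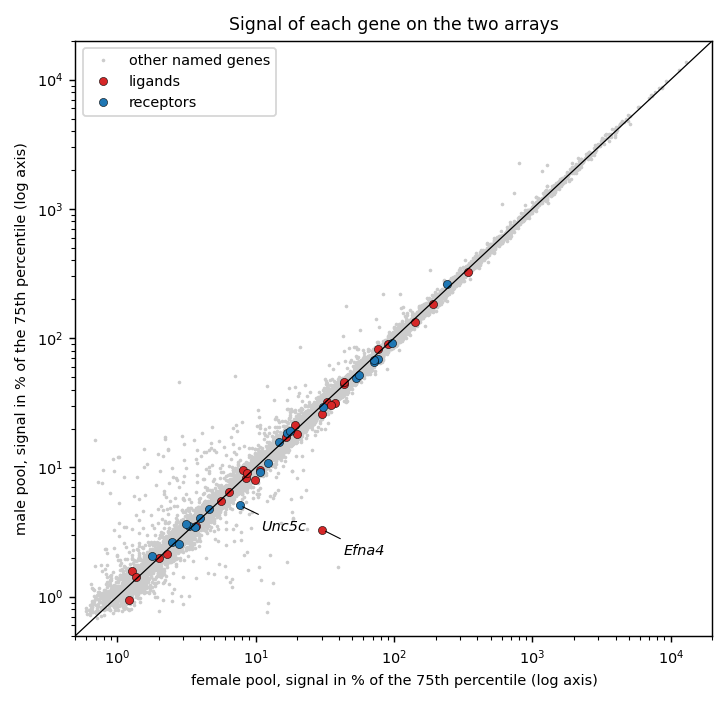
Signal of each gene well above background on both arrays, in % of the array's 75th percentile (log axes), female pool on the x axis and male pool on the y axis; red points are guidance ligands, blue points guidance receptors, grey points the other named genes, and the line marks equality. The guidance genes follow the line, except Efna4 at 30.4% in the female and 3.30% in the male pool, and Unc5c just below the line at 7.66% and 5.10%.

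With a threshold of 1.5-fold, none of the 55 measured axon guidance genes was called higher in the male pool, where 3.38% of the 12571 measured named genes were. In the female pool 3 were called (5.45% of the 55), against 1.73% of the named genes: Efna4, Unc5c and Sema3g. At 2-fold, none was higher in the male pool (1.94% of named genes) and only Efna4 was higher in the female pool (1% of named genes). On both arrays 6 of the 51 (11.8%) lay more than 2 technical SD from 0, against 12.7% of all named genes. All 6 were higher in the female pool: Efna4, Unc5c, Slit2, Sema4f, Sema4b and Efna5. Of the 1532 named genes beyond 2 technical SD, 758 (49.5%) were higher in the female pool. The spots of Efna4 and Unc5c lay in patches of the slide, described below, and second probes of Unc5c and Sema4b had the opposite sign. As many as 30 of the 51 lay within 1 technical SD.

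Because the pools differ in sex, the promoters of the genes were searched for the short motifs bound by sex steroid receptors. RefSeq promoters (assembly GRCr8, 250 bases before the start) were matched for 47 of the 59 genes. The motif AGGTCA, which the oestrogen receptors share with other nuclear receptors, was found on either strand only in Sema3g (2.13% of the 47, against 14.1% of 33469 promoters), and AGAACA, shared by the androgen and glucocorticoid receptors, only in Ephb6 and Sema6b (4.26% against 17.5%). The full palindromic oestrogen response element was in none of them (0.0239% of all promoters), nor was TATAAA on the gene's strand (8.06% of all promoters). CG dinucleotides numbered 13 in the median promoter of these genes and 5 in that of all promoters. A match describes letters only. The sequences below, 5′ to 3′, are those of Efna4, the gene with the widest difference, of Efna1, an ephrin gene close to it on chromosome 2, which differed by less than its technical SD, and of Sema3g. Capitals mark CG dinucleotides in the ephrin promoters and the motif AGGTCA in Sema3g.
Efna4, chr2:177050714-177050963, minus strand: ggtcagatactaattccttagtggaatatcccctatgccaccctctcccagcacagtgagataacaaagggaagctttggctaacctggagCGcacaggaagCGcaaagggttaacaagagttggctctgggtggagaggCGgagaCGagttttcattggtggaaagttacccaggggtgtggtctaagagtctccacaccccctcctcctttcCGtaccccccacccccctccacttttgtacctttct
Efna1, chr2:176986822-176987071, minus strand: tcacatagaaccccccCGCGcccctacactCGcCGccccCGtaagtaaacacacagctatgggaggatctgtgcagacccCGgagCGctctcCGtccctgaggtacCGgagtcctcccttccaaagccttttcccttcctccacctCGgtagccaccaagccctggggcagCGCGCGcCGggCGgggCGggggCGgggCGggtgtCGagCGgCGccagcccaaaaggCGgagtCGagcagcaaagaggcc
Sema3g, chr16:6419775-6420024, plus strand: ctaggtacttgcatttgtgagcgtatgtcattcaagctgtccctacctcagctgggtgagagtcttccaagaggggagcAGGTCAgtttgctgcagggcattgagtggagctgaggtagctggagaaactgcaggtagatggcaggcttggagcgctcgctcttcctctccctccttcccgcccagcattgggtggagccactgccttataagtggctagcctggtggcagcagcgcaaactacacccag
The Efna4 promoter holds 5 CG dinucleotides and that of Efna1 holds 23.

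Among the class A ephrins, ligands anchored to the membrane by a lipid, Efna4 stood apart. Its signal was 3.30% in the male and 30.4% in the female pool, a log2 difference of -3.20 (9.20-fold higher in the female pool) with a technical SD of 0.13. Efna1 was at 45.6% in the male and 43.7% in the female pool, a difference of 0.064 within its technical SD of 0.087. Efna2 was at 1.42% and 1.37%, also within its technical SD of 0.43. Efna5, which helps to lay out topographic maps, was at 30.3% in the male and 35.0% in the female pool, a difference of -0.21 at a technical SD of 0.087, and its second probe was at -0.27. A further Efna5 probe was detected in neither pool. In the order of the gene table Efna3 and Efna4 are next to each other and 3 genes separate Efna3 from Efna1, so of this cluster Efna4 differed widely and Efna1 did not.

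The difference of Efna4 rests on a single spot, which lay in a patch of the slide. Patches were found from the surroundings of each spot: among its 18 closest detected spots for other probes, 2 or more had to differ 2-fold or more the same way. Around the Efna4 spot 5 of the 18 were at least 2-fold higher on the female array and none on the male array. All 5 were among the 12 neighbours that were dim on the male array (log2 signal under -3), whose median difference was -0.47. The 6 brighter neighbours had a median of -0.053, and 1 of them was at -0.89. Because the male signal is part of the difference, a split by it draws dim spots towards negative values. The dim neighbours gained at most 13.5% of the 75th percentile on the female array, and Efna4 gained 27.1%. Its female spot was uneven: the processed signal, built on the mean of the spot's pixels, was 1.46 times the background-subtracted pixel median. That ratio was 1.05 for the male spot, and over 13265 female spots with signals from 10% to 100% of the 75th percentile it had a median of 1.02 and a 99th percentile of 1.21. With normexp Efna4 was at -2.004. Whether the patch contributed to the Efna4 value was not tested. Among named genes detected in both pools 349 were called at 1.5-fold, and 66.8% of these 349 were on spots in patches. Of all 12052 named genes detected in both pools, 1929 were on such spots. Counting undetected genes too, it was 15.0% of all named genes and 6 of the 59 guidance genes (10.2%).

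**Figure D2:**
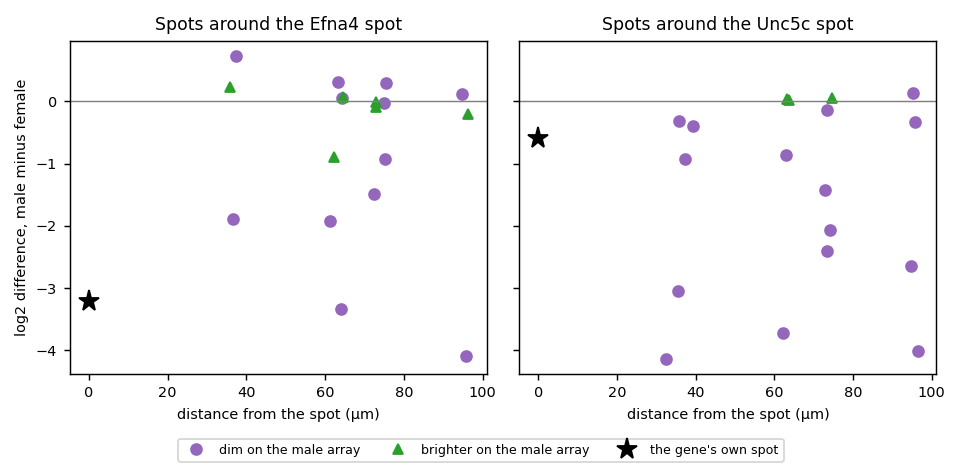
Log2 difference (male minus female) of the 18 measured spots nearest to the Efna4 spot (left) and to the brighter Unc5c spot (right), against distance in µm; purple circles are spots dim on the male array (log2 signal under -3), green triangles brighter spots, and the star is the gene's own spot. Dim neighbours reach strongly negative values (5 of 18 spots beyond 2-fold around Efna4, 8 of 18 around Unc5c). The brighter neighbours have medians of -0.053 and 0.039, with 1 of the 6 around Efna4 at -0.89. The male signal used for the split is part of the difference.

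The class B ephrins, which span the membrane, hardly differed, and their signs changed with the scaling (1 of 3 higher in the male pool, 0 with median centring and 2 with normexp). Efnb3 was at 185% in the male and 192% in the female pool over its 2 spots. The difference was -0.053 at a technical SD of 0.051. This probe had a spot in a patch, and without spots in patches Efnb3 was at -0.054. A second Efnb3 probe, at 0.915% and 1.49%, gave -0.70 with a technical SD of 0.43. Efnb1, an X-linked gene, was at 2.12% in the male and 2.28% in the female pool (-0.10). Efnb2, a marker of arterial endothelium, was at 6.47% in both pools with a difference of 0.00011. Both were within their technical SD (0.25 and 0.13).

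Most class A Eph receptors had a slightly higher signal in females. Among the 6 detected in both pools this held for 5, under each scaling and with normexp; the median was -0.12 and the range -0.19 to 0.051. None reached 1.5-fold, and each of the 6 differences was under 2 technical SD. Epha5, a neuronal receptor of class A ephrins, was at 68.9% in the male and 77.0% in the female pool, a difference of -0.16 at a technical SD of 0.087. Its other 3 probes were also lower in the male pool, at -0.22, -0.081 and -0.33. Epha4, which binds ephrins of both classes, was at 48.9% in the male and 53.5% in the female pool (-0.13), but at 0.057 on its second probe. Epha8 was at 65.6% and 71.2% (-0.12), and Epha3 at 10.8% and 12.3% (-0.19), with -0.023 on its second probe. Epha2 was at -0.075. Epha7 was at 4.79% in the male and 4.63% in the female pool (0.051), and the other Epha7 probes ran from -0.24 to 0.0074, all within their technical SD of 0.25. Epha1 was detected only in females (0.824%). With the male signal raised to that array's lowest well-above-background level (0.686%), Epha1 was 1.20-fold higher in females. This is within the technical SD of 0.43.

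The class B Eph receptors went both ways. Ephb2, a synaptic receptor that contacts NMDA receptors, was at 2.08% in the male and 1.78% in the female pool (0.22, technical SD 0.25). Ephb1 was at 15.8% and 14.7% (0.10), with 0.034 on its second probe. Ephb6, a receptor without kinase activity, was at 91.0% in the male and 97.5% in the female pool (-0.10, technical SD 0.087). Ephb4, a receptor of venous endothelium, was detected only in females, at 0.828% against 0.707% in males. The measured ratio was 1.17-fold. None of these differences exceeded 2 technical SD.

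Among the class 3 semaphorins, the secreted ligands of neuropilins and plexins, both directions occurred. Sema3g, a semaphorin of vascular endothelium, was detected only in females (1.09%, against 0.613% and not well above background in males). With the male signal raised to that array's lowest well-above-background level (0.686%), Sema3g was 1.59-fold higher in females. That difference was -0.66 log2 units, with a technical SD of 0.43. The level is no strict detection limit, so 1.59-fold is not a strict minimum. The Sema3g spot was outside patches. The difference was -0.22 with normexp, whose added offset draws dim signals together. Sema3b was at 9.56% in the male and 8.07% in the female pool (0.25, technical SD 0.13), and Sema3d, at 1.57% and 1.28%, was at 0.29 (technical SD 0.43). Sema3a, the prototype repellent of this class, was at 1.99% in both pools with a difference of 0.00091. Sema3c at -0.049 and Sema3e, which binds plexin D1 directly, at -0.081 were within their technical SD.

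The membrane-bound semaphorins of classes 4 to 7 were all detected in both pools. In males 4 were higher and 7 lower than in females, and the median was -0.072. The largest differences were those of Sema4f, at 31.3% in the male and 37.6% in the female pool (-0.26), and Sema4b, at 26.0% and 30.3% (-0.22). Both genes encode transmembrane semaphorins found at synapses, and both differences exceeded 2 technical SD of 0.087. The second Sema4b probe, at 2.81% and 2.58%, gave 0.12 with a technical SD of 0.25, so the 2 probes of this gene had opposite signs. In the other direction Sema7a, a lipid-anchored semaphorin that acts through an integrin and plexin C1, was at 21.3% and 19.3% (0.15), and Sema4d, the ligand of plexin B1 made by oligodendrocytes, was at 82.8% and 76.7% (0.11). Sema4g was at -0.12, and Sema5a, whose spot lay in a patch, at -0.18. Sema6b at -0.089, Sema4a at -0.072, Sema4c at -0.048, Sema6c at 0.084 and Sema6d at 0.026 lay under 2 technical SD from 0.

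The semaphorin receptors showed small differences of both signs. Plxna2, a plexin that pairs with neuropilins and also receives class 6 semaphorins, was at 9.30% in the male and 10.8% in the female pool (-0.22, technical SD 0.13). Plxnb2, a receptor of class 4 semaphorins, was at 19.0% and 17.7% (0.10). The X-linked Plxna3 and Plxnb3, the latter a receptor of Sema5a, were at 0.038 and -0.061, within their technical SD of 0.25 and 0.087. Nrp1, the co-receptor of Sema3a and of vascular endothelial growth factor, was at 18.5% in the male and 16.9% in the female pool (0.13, technical SD 0.13), with 0.084 on its second probe. Nrp2, the co-receptor preferred by Sema3f, was at 52.3% and 55.8% (-0.094); of its other 2 probes 1 was detected only in females and 1 in neither pool. All 3 X-linked guidance genes (Efnb1, Plxna3 and Plxnb3) thus lay between -0.10 and 0.038.

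**Figure D3:**
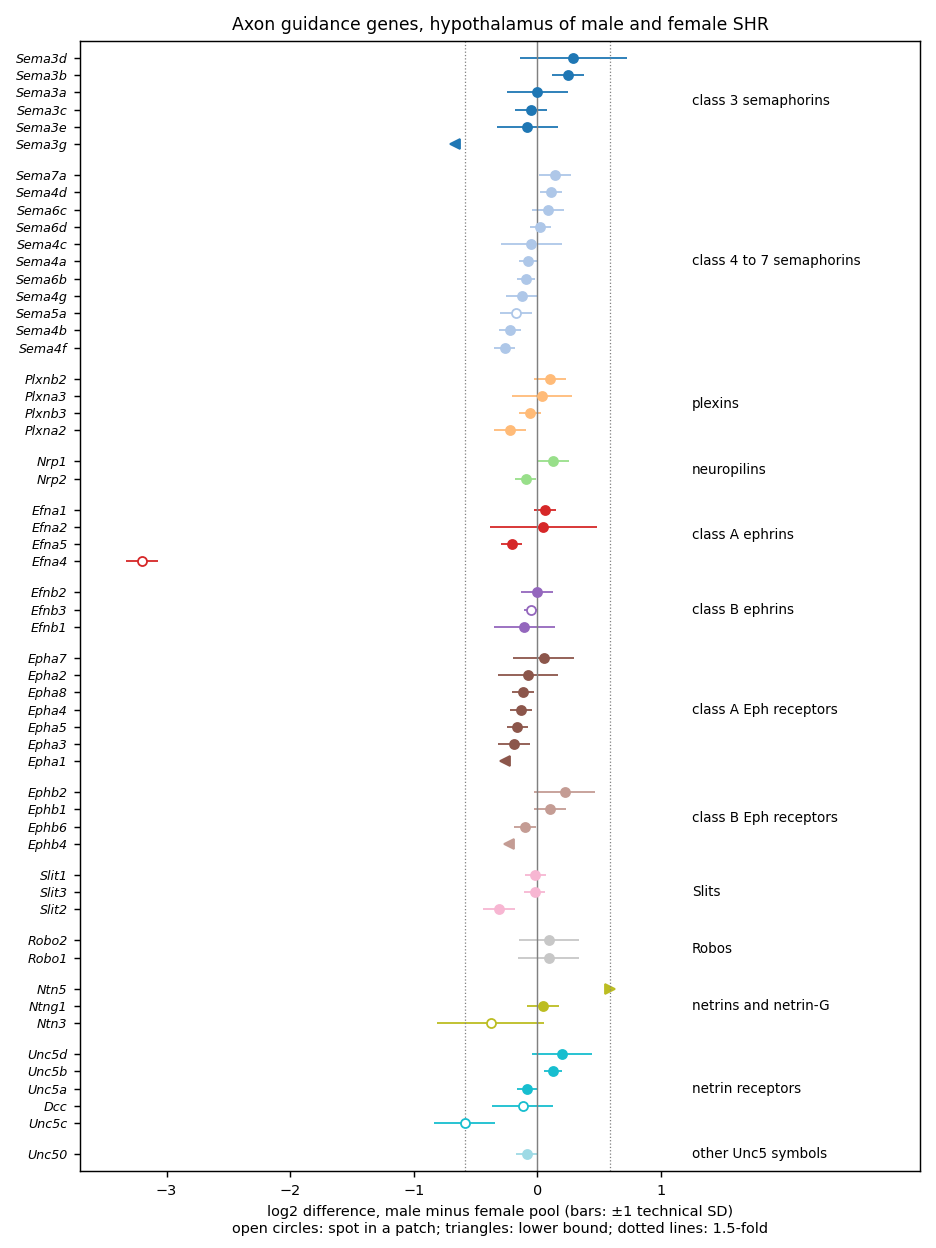
Log2 difference (male minus female, x axis) of the 55 measured genes by family. Circles are genes well above background on both arrays, with bars of 1 technical SD, and open circles lie on spots in patches. Triangles are genes well above background in 1 pool: differences from the raised male signal for Sema3g and Epha1, measured differences for Ephb4 and Ntn5. Dotted lines mark 1.5-fold. Apart from Efna4 at -3.20, the genes lie between -0.66 and 0.58.

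All 3 Slits had a slightly lower signal in males, except that 1 of the 3 was higher there with normexp. Slit2 was at 7.93% in the male and 9.85% in the female pool (-0.31, technical SD 0.13), with -0.080 on its second probe and -0.15 with normexp. Slit1 was at 89.4% and 90.3% (-0.015), and Slit3 at 32.2% and 32.7% (-0.022), both within their technical SD of 0.087. Both lay close to the median of all named genes (-0.021), so the lower signal of the family rests on Slit2. Of the Slit receptors, Robo1 was at 3.52% in the male and 3.31% in the female pool (0.092). Robo2 was at 2.65% and 2.48% (0.095), and both were within their technical SD of 0.25.

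Of the netrins, Ntng1, a lipid-anchored netrin relative that binds the synaptic protein Lrrc4c, was at 17.2% in the male and 16.7% in the female pool (0.046, technical SD 0.13). Ntn3 was dim, at 0.937% and 1.22%, on a spot in a patch; the difference of -0.38 did not exceed its technical SD of 0.43, and it was 0.043 with normexp. Ntn5 was detected only in males (0.879%, against 0.586% and not well above background in females). Its measured log2 difference of 0.584 was just under the threshold of 0.585. Ntn1, the classical attractant of commissural axons, was not well above background in either pool, and neither was Ntn4 or Ntng2.

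Among the netrin receptors, the probes of Unc5c disagreed. Unc5c, a repulsive netrin receptor, was at 5.10% in the male and 7.66% in the female pool on the probe with the higher mean signal, a difference of -0.59 (1.502-fold, technical SD 0.25). On its second probe it was at 1.502% in the male and 0.919% in the female pool, a difference of 0.71 in the opposite direction with a technical SD of 0.43. Both spots lay in patches, and the mean over the 2 probes was 0.061. Around the second probe 2 of the 18 nearest spots were at least 2-fold higher on the female array and none on the male array. That patch thus ran opposite to the probe's own value. Around the brighter probe 8 of the 18 nearest spots were at least 2-fold higher on the female array. The median over all 18 was -0.89. The dim neighbours gained at most 2.60% of the 75th percentile on the female array, and the brighter Unc5c spot gained 2.56%. The part of the patch in the value was not tested. Unc5b, a receptor also found on endothelium, was at 262% in the male and 241% in the female pool (0.13, technical SD 0.072), with 0.16 on its second probe and 0.24 on the brighter probe with normexp. Unc5a was at 67.5% and 71.4% (-0.081), with -0.14 on its second probe, and Unc5d at 3.64% and 3.17% (0.20, technical SD 0.25). Dcc, the receptor through which netrin attracts, was at 2.56% in the male and 2.78% in the female pool (-0.12). Its second probe was at -0.16. Both values were within a technical SD of 0.25, and both spots lay in patches. Unc50, which is no netrin receptor, was at -0.085.

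Several probes bear on how far a single spot can be read. In 14 of the genes at least 2 probes were detected in both pools, and in 10 of these all such probes had 1 sign. They were lower in the male pool in 7 genes (Dcc, Efna5, Efnb3, Epha3, Epha5, Slit2 and Unc5a) and higher in 3 (Ephb1, Nrp1 and Unc5b). Among these 10, both Dcc probes, the brighter Efnb3 probe and the second probes of Ephb1 and Nrp1 had spots in patches. In Epha4, Epha7, Sema4b and Unc5c the signs differed. Probes of 1 gene were hybridised with the same pools and are not replicates of a sex.

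**Figure D4:**
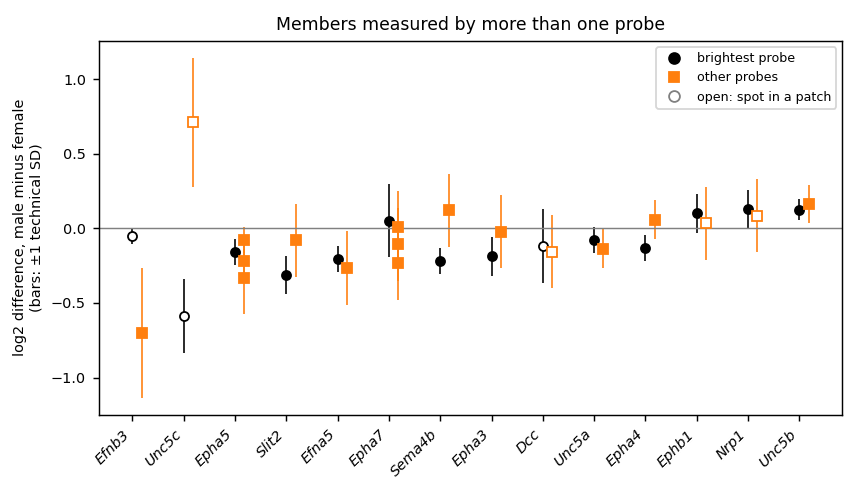
Log2 difference (male minus female, y axis) of each probe well above background on both arrays, for the 14 genes with more than 1 such probe; black circles are the brightest probe, orange squares the others, bars are 1 technical SD, and open symbols are spots in patches. The widest gap between probes is that of Unc5c, from -0.59 to 0.71; the 4 Epha5 probes all lie below 0.

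Ligands and receptors had like medians. Males had the higher signal for 11 and the lower for 17 of the 28 ligands detected in both pools (median -0.049). For the 22 receptors the counts were 10 and 12 (median -0.068). A difference between ligands and receptors was not tested.

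Further genes of the guidance pathways, among them effectors, adhesion proteins and myelin inhibitors, also stayed close in the pools. Of 106 such genes listed, 95 had a matched probe and 94 were detected in both pools. Males had the higher signal for 36 and the lower for 58, and the median was -0.047. None was called at 1.5-fold in the male pool (3.38% of all named genes) and 1 in the female pool (1.73%). That gene was Arhgap39, which encodes a GTPase-activating protein that binds Robo receptors, at -0.74 with a technical SD of 0.25, and at -0.25 with normexp, where it was not called. In the Slit and Robo signalling list 5 of 14 were higher and 9 lower in males, and 7 and 7 with normexp. The netrin signalling list had 3 of 17 higher and 14 lower, and 6 and 11 with normexp. In it Dock1, an activator of Rac, was at 0.51 (a spot in a patch), and Maged1, a partner of Unc5a, was at -0.20. In the ephrin and Eph signalling list 5 of 19 were higher and 14 lower, with the adaptor Grip1 at -0.25 and Ngef, the exchange factor ephexin, at -0.24. The semaphorin and plexin signalling list had 10 higher and 15 lower, which turned to 14 and 11 with normexp, with Mical1 at 0.20 and Farp2 at -0.18. In the list of growth cone effectors Stmn2 was at -0.13 and Dcx at -0.12, and 7 of 16 were higher in males, but 3 of 16 with median centring. Of the myelin inhibitors of axon growth 7 of 8 were higher in males (median 0.052), but 4 of 8 with median centring. Among the 8 the largest differences were those of Ngfr, a co-receptor of these inhibitors, at -0.30, and Rtn4rl1 at 0.12. Tnfrsf19 of the same list, detected only in females, was at -0.23.

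Some marker lists of other cell types lay further from 0 than the guidance genes. All 13 meningeal fibroblast markers detected in both pools were higher in males (0.50 to 1.82, median 1.20), and 9 of the 13 reached 1.5-fold. Of the 14 measured in at least 1 pool 10 were called, against 3.38% of the measured named genes. Spots of 5 of the 14 lay in patches, among them Ogn at 1.82. Red blood cell markers had a median of 0.86 (4 of 4 higher) and oligodendrocyte markers one of 0.17 (12 of 12 higher). Of 11 endothelial markers 7 were higher, with a median of 0.13. The medians were 0.11 for microglia, 0.093 for astrocytes, 0.073 for oligodendrocyte precursors and 0.052 for mural cells. Neuronal markers had a median of -0.057, with 9 of 10 lower in the male pool. Hypothalamic markers were present, 14 of 16 detected in both pools with a median of -0.053. Markers of neighbouring cortex and striatum were present too, 7 of 9 detected in both pools. Their median was -0.15, with 5 lower and 2 higher in the male pool. Choroid plexus and ependyma markers had a median of 0.24 (4 of 4 higher) and thalamus markers one of 0.069 (3 of 3 higher). The part of tissue composition in the differences of guidance genes was not tested.

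**Figure D5:**
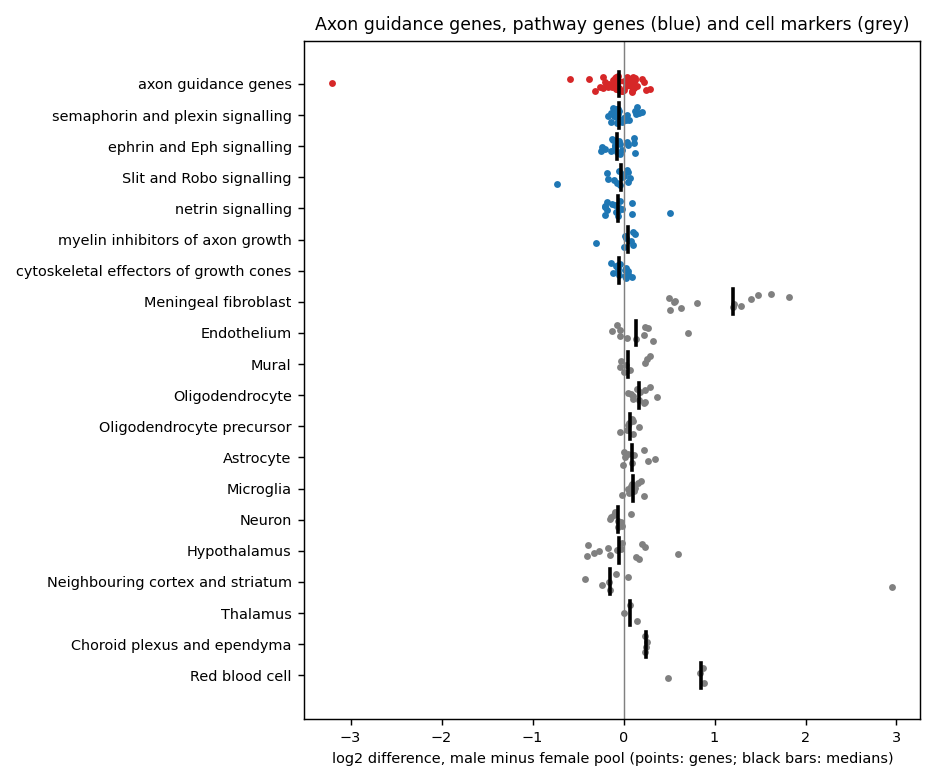
Log2 difference (male minus female, x axis) of the genes well above background on both arrays in the axon guidance genes (red), the pathway lists (blue) and the cell marker lists (grey); each point is a gene and black bars are medians. The medians of the guidance genes (-0.053) and neuronal markers (-0.057) lie just below 0, those of meningeal fibroblast (1.20) and red blood cell (0.86) markers far above it.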

How the data were processed

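Gene expression was measured in 2 pools of hypothalamic RNA on 2 single-colour (Cy3) Agilent arrays at positions 1 and 2 of 1 slide. Per the file headers, the authors' array files hold an intensity per spot, background-subtracted by Feature Extraction 11.5.1.1 and not scaled between arrays; the submitters' processing notes name version 9.1. The deposited series matrix intensity equalled 100 times the signal over the array's 75th percentile, within a tolerance of 1%, for 100% of its 42947 values per array.

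Log2 signals were centred on the 75th percentile and averaged over a probe's spots, leaving out 664 spots with an outlier flag; no such spot belonged to a guidance gene. RefSeq accessions gave gene names (table of assembly GRCr8) to 45.2% of 45598 probes. A signal that was not well above background was raised to that array's lowest well-above-background probe where it lay below it, and the difference became a bound. That probe was at 0.686% for males and 0.571% for females, in the scaled unit. A signal already above that level, as for Ephb4 and Ntn5, was kept as measured. Such signals show that the level is no strict detection limit, so the bound is not a strict minimum. For genes detected in 1 pool the difference was left out where it fell below 1-fold. With 1 array per sex the comparison was by size, at 1.5-fold and 2-fold. Any guidance gene could be named, since the choice was by symbol. Signals were to be given at least for those past 1.5-fold, the 2 with the largest difference in each family (ephrins, semaphorins and Eph receptors each as 1 family) and those with several probes, and are also given for others; of each pathway list, genes past 1.5-fold or else the 2 with the largest difference were to be named. The same rule covered marker lists, which are given by counts and medians only. The genes, lists and thresholds were chosen with earlier results of these data known. Alternatives included quantile normalization and normexp (offset 50) in limma 3.58.1 on pixel medians, since mean pixel signals were not in the array files used here. The programs were tested on simulated data.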

Additional observations from a re-analysis of the deposited data

How the results depend on the processing

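That no guidance gene passed 1.5-fold towards the male pool held under every alternative tried, among them other scalings, normexp, no filter on dim probes and spots in patches left out. The count in the female pool, 3, was 1 with normexp on pixel medians (Efna4), 1 without spots in patches (Sema3g) and 1 at 2-fold (Efna4). It was 2 with the mean over probes, 2 with genes well above background on both arrays and 4 without a filter on dim probes. The median difference ranged from -0.083 with median centring to -0.0022 with normexp. Over all named genes it was -0.052 and 0.00003 in these settings. Unc5c turned from -0.59 to 0.061 with the mean over its probes, and no value was left for it or for Efna4 without spots in patches. Efna4 was -2.004 with normexp and -3.23 with median centring. Normexp on mean pixel signals was not run. No paired analysis was possible because each sex had 1 array. Normexp and the exclusion of Unc50 and Unc5cl (median -0.051) were chosen after seeing the data. Signal over background limits the dim genes: below a log2 signal of -6 the technical SD was 0.43.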
